A study of Mus musculus with 1073 samples.

Results

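The cells described here were 91 haemato-endothelial cells of the E7.75 mouse yolk sac, divided by whether *Klf1* mRNA was found in them. The members were chosen by their read counts. A cell entered the class when at least 4 of the 6 genes *Kit*, *Gata2*, *Fli1*, *Hhex*, *Lmo2* and *Tal1* had 1 read count or more. *Klf1* had 1 count or more in 47 of these cells and no count in the other 44. The class came from 140 *Flk1*-GFP+ cells of that stage, and from 926 cells of the whole series after the authors' filter. All cells of the stage were heterozygous for a GFP knocked into the *Flk1* (*Kdr*) locus on a C57BL/6 background and were sorted as GFP+ and 7-AAD− after trypsin dissociation of early headfold yolk sacs, so GFP marked cells in which the *Flk1* locus was or had recently been active, mesoderm as well as endothelium. Sorts of these stages used yolk sacs of several embryos together, and the embryo of a cell is not named. The series follows yolk sac haematopoiesis from mesoderm at E7.25 to separate lineages at E10.5 by RNA-seq of single cells in 13 sorted populations, and the E7.75 labels name 2 sets of cells, one in each of lanes 7 and 8, which are taken here as 2 Fluidigm C1 captures. Whether they came from separate pools of embryos is not given in the sources used here. Cells of a sorted population are not replicates of it, so values are given over all cells and within each capture, and no test was made.

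*Klf1* encodes a zinc finger activator that is needed for the globin, haem synthesis and red cell membrane genes of both primitive and definitive erythroid cells. It binds CACCC-type elements, often near sites of GATA1 and TAL1, and its own gene is a GATA1 target. In the yolk sac, *Flk1*+ mesoderm gives rise to endothelium, mesenchyme and the first, primitive, erythroid cells, and the 6 class genes are shared by early blood and endothelial cells.

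The counts of *Klf1* (GRCm38, chromosome 8) chose the groups and are given as a description. Among the 47 *Klf1*-detected cells they ran from 1 to 762, with a median of 27, and the CPM ran from 0.247 to 197, with a median of 14.3. Just inside the limit were 6 cells with a single count, 14 cells had 1 to 9 counts, and 13 had 100 or more. Of the 49 *Flk1*-GFP+ cells outside the class, 3 had *Klf1*, each with 1 count (6.12%, exact 95% interval 1.28 to 16.9, counting error only). No *Klf1* count was found in 79 E8.5 endothelial cells, and the exact 95% interval for that share reaches 4.56%. The share with *Klf1* was 48.6% of 35 class cells in the capture sequenced in lane 7 and 53.6% of 56 in the capture sequenced in lane 8, within each other's exact intervals (31.4 to 66.0 and 39.7 to 67.0). At the class limit, *Klf1* was found in 3 of the 20 cells with exactly 4 of the 6 genes and in 2 of the 25 cells with 3 genes, which stayed out. It was found in 39 of the 57 cells with all 6, so that detection of *Klf1* went with the number of class genes detected.

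Depth was close between the groups. Total counts per cell ran from 614785 to 4457761 (median 2037383) in the *Klf1*-detected cells and from 533103 to 4378956 (median 1938810) in the undetected cells, with a median of 8734 and 8720.5 genes per cell. The share of mitochondrial counts had a median of 2.76% and 2.58%. It was above 10% in 2 cells of each group, and highest at 50.8% in a detected cell. Transcripts of both sexes, taken as a possible sign of 2 cells at 1 capture site, were found in 5 cells of each group, all in lane 8. The 6 primitive erythroid markers had a summed median of 766 CPM (0 to 14717) in the detected cells and 3.56 CPM (0 to 2389) in the undetected cells. For the 7 endothelial markers the medians were 157.8 CPM (1.46 to 725) and 262 CPM (0.667 to 2548), and for the 9 mesenchymal markers 78.3 CPM (0.830 to 2974) and 363 CPM (2.88 to 2738). Of 4 macrophage markers, 2 were at 0 in the detected and 3 in the undetected cells. The 5 progenitor markers had summed medians of 605 and 97.7 CPM, and the 6 mesoderm markers 11.2 and 259 CPM. In the E7.75 cells outside the class the medians were 1.40 (erythroid), 534 (mesenchymal) and 425 CPM (mesoderm), nearer to the undetected cells. The undetected cells exceeded those outside the class in progenitor markers (97.7 against 17.0 CPM). They did so too in the mean share with an endothelial marker (60.1% against 37.3%). The class genes are part of the rule, so their presence in both groups is no check of the label. Both groups held cells of low endothelial and erythroid content, since 15 of 44 undetected and 3 of 47 detected cells had fewer than 2 of the endothelial genes *Pecam1*, *Cdh5*, *Tek* and *Ramp2* as well as fewer than 3 of the erythroid genes *Hbb-bh1*, *Alas2*, *Epor* and *Gata1*.

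The 2 groups were then compared across the genome to ask which genes had another level where *Klf1* was found. A gene was called higher or lower when its mean CPM + 1 differed 2-fold or more in the same direction in both captures. The 8258 genes considered had a mean of 10 CPM or more over the 91 cells and were detected in 20% or more of them, and *Klf1* was left out. Of these, 204 genes (2.47%) were higher and 347 genes (4.2%) were lower in the *Klf1*-detected cells. The median log2 ratio over all 8258 genes was 0.05, with quartiles of −0.35 and 0.36. Because the filter used both groups together, a gene that is nearly absent from 1 group passes only through the other. Such a gene had to differ, and nothing is read from the 2 shares. Several lists below hold such genes, and their shares are given as a description only. A mean of 10 CPM or more in both groups was found for 100 of the higher and 196 of the lower genes, and for the rest the mean of the other group was under 10 CPM. The spread of single genes between captures was wide, as the plot of both captures shows.

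**Figure D1:**
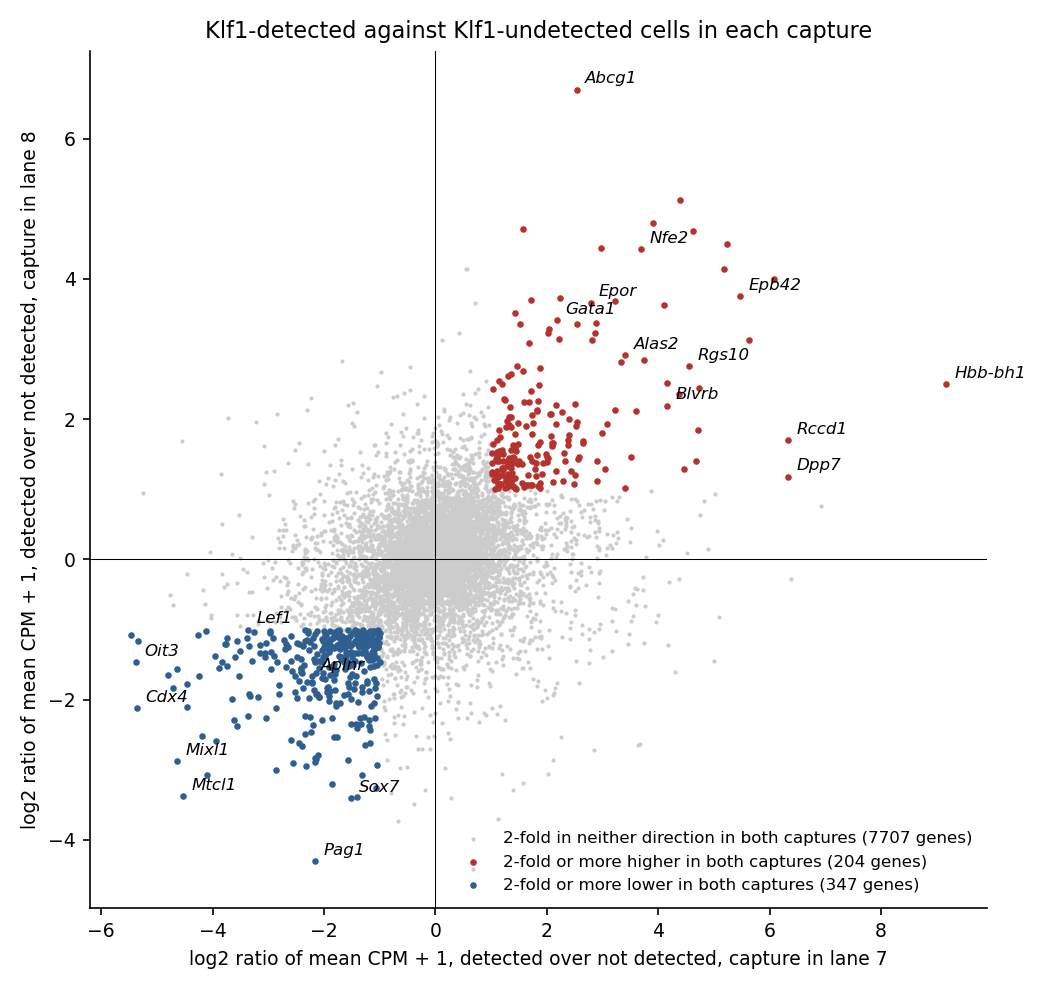
Log2 ratio of mean CPM + 1, *Klf1*-detected over undetected cells, for 8258 genes in the lane 7 capture (horizontal axis) and the lane 8 capture (vertical axis). Red points are the 204 genes that were 2-fold or more higher in both captures and blue points the 347 that were lower. *Hbb-bh1* lay at 9.17 in lane 7 and 2.50 in lane 8, and *Abcg1* at 2.54 and 6.70.

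Globin mRNA separated the groups widely. *Hbb-bh1*, the β-like globin expressed first in primitive erythroid cells (chromosome 7, 103841637 to 103843164, minus strand), ran from 0 to 13417 CPM with a median of 428 in the *Klf1*-detected cells, and from 0 to 2285 CPM with a median of 0.904 in the undetected cells. Of the 47 detected cells, 43 were above the median of the undetected cells, and 2 undetected cells were above the median of the detected cells. The means were 1406 and 82.7 CPM, a log2 ratio of 4.07. A single undetected cell held 62.8% of the CPM of its group, and the ratio was 4.99 without the highest cell of each group and capture and 5.47 without cells above 10% mitochondrial counts. In lane 7 the means were 2503 and 3.33 CPM, and in lane 8 they were 784 and 137.6 CPM. *Hbb-bh1* was the 1 globin of a list of 10 that passed the filter. The embryonic globin *Hbb-y* was found in 15 detected cells, with a highest value of 331 CPM, and in none of the undetected cells, where up to 8.04% would still be within the exact 95% interval. The embryonic α-like globin *Hba-x* was found in 8 detected cells (0 to 464 CPM) and 5 undetected cells (0 to 2.37 CPM), with 59.1% of its CPM in the detected cells held by a single cell.

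Of 15 genes for haem synthesis and mitochondrial transport that passed the filter, 2 were higher (13.3%, against 2.47% of all genes) and none was lower, and 14 had a ratio above 0. Over 10 other settings between 2 and 7 were higher. *Alas2* had a mean under 10 CPM in the undetected cells and passed through the detected cells, so nothing is read from the share. Their median log2 ratio was 1.01. *Alas2*, the erythroid enzyme of the first step (chromosome X, 150547375 to 150570638), ran from 0 to 639 CPM (median 9.18) in the detected and from 0 to 106.4 CPM (median 0) in the undetected cells. It was detected in 31 of 47 and 11 of 44 cells, with means of 73.2 and 7.27 CPM and log2 ratios of 3.41 in lane 7 and 2.92 in lane 8. Among the members that did not reach 2-fold in both captures, those of highest level were *Tmem14c*, which moves a haem precursor into mitochondria (235 and 122.7 CPM), *Urod* (101.9 and 52.9 CPM) and *Alad* (83.9 and 59.6 CPM). Of 12 iron genes, 1 was higher (8.33%, against 2.47% of all genes). This was *Blvrb*, a biliverdin reductase of red cells, found in 39 of 47 and 21 of 44 cells with means of 50.0 and 5.21 CPM. It too passed the filter through the detected cells. The transferrin receptor gene *Tfrc* was at 241 and 224 CPM, and its ratio had opposite signs in the captures (0.48 and −0.19). The ferritin heavy chain gene *Fth1* was at 1558 and 941 CPM, and *Ftl1* did not reach the limit either.

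Genes for the red cell membrane and its skeleton gave 5 higher and no lower of 13 above the filter (38.5% higher, against 2.47% of all genes). *Epb42*, *Sptb* and *Dmtn* had a mean under 10 CPM in the undetected cells and passed through the detected cells, so nothing is read from the share. The median of the list was 0.39, and 4 of the 13 lay below 0. *Epb42* (protein 4.2, which links band 3 to the skeleton) ran from 0 to 231 CPM in the detected cells and did not exceed 0.480 CPM in any undetected cell. It was found in 27 of 47 and 4 of 44 cells, and 57.4% of the detected cells exceeded the highest undetected cell. *Sptb*, erythroid β-spectrin, had means of 55.6 and 7.09 CPM and log2 ratios of 2.80 and 3.14. *Gypc* (glycophorin C) had means of 116.8 and 25.4 CPM, and *Dmtn* (dematin, which bundles actin) 14.7 and 5.18 CPM. *Dmtn* kept its call in 7 of 10 other settings, and its log2 ratio went from 1.35 to 0.28 with all 6 class genes required. *Car2*, carbonic anhydrase 2 of the red cell, ran from 2.57 to 3449 CPM (median 1383) in the detected and from 0 to 2522 CPM (median 59.4) in the undetected cells. Only 1 undetected cell was above the median of the detected cells. The ankyrin gene *Ank1* lay under the filter and was found in 10 detected cells and in no undetected cell. No count of *Slc4a1*, the gene of band 3, was found in either group.

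The erythroid transcription factors and their partners had 8 higher and no lower genes of 23, and a median log2 ratio of 0.84. Without the 6 class genes, which the rule used, 6 of 17 were higher, against 2.47% of all genes, and the median was 0.84. *Nfe2* had a mean under 10 CPM in the undetected cells and passed through the detected cells, so nothing is read from the share. *Gata1*, the factor that drives erythroid and megakaryocyte genes (chromosome X, 7959260 to 7978071, minus strand), ran from 0 to 2035 CPM (median 281) in the detected cells and from 0 to 1086 CPM (median 0.514) in the undetected cells. Its means were 340 and 57.0 CPM, with log2 ratios of 2.18 in lane 7 and 3.42 in lane 8. *Gata1* was found in 45 of 47 *Klf1*-detected cells (95.7%, exact 95% interval 85.5 to 99.5) and in 25 of 44 undetected cells (56.8%, 41.0 to 71.7). Thus *Gata1* without *Klf1* was seen in 25 cells and *Klf1* without *Gata1* in 2, and 19 cells had neither. A single count was enough here. Some of the 25 cells lay near that limit, as at 0.324, 0.460 and 0.477 CPM, and others ran up to 1086 CPM. The 25 cells are therefore not read as a group with a clear *Gata1* level. *Nfe2*, whose product acts on globin enhancers, was found in 33 and 6 cells, with means of 35.0 and 1.28 CPM. *Gfi1b*, a repressor needed by erythroid and megakaryocyte cells, had a median of 128.2 CPM in the detected and 0.295 CPM in the undetected cells. *Ikzf1* (Ikaros) was found in 44 and 13 cells and *Myb*, a progenitor factor, in 40 and 12 cells, with means of 91.7 and 13.4 CPM and of 50.8 and 12.9 CPM. *Myc* was higher with log2 ratios of 1.02 and 1.25, and kept its call in 5 of 10 other settings. *Myb* kept its call in 8 and *Gfi1b* in 9 of them, and both lost it with all 6 class genes required. Between 5 and 11 of the list were higher over these settings.

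The last 2 of the 8 were class genes. *Lmo2*, the bridging protein of the TAL1 complex, had means of 112.4 and 34.3 CPM, and *Tal1* 92.5 and 40.2 CPM. Both lost the call when the class was limited to cells with at least 5 of the 6 genes. *Gata2* was at 130 and 77.3 CPM with log2 ratios of 0.04 and 1.10, *Hhex* at 117.1 and 57.7 CPM with 1.17 and 0.91, *Kit* at 58.8 and 58.4 CPM and *Fli1* at 167 and 217 CPM. The direction of *Fli1* depended on the measure, since the difference of its mean log2 values was 1.33 and was called higher. *Runx1*, required for definitive blood, was found in 45 and 31 cells, with a median of 148.6 CPM in the detected and 4.67 CPM in the undetected cells. Its log2 ratio was 1.99 in lane 7 and 0.80 in lane 8, so it was not called.

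Among 12 genes of erythropoietin receptor signalling, 2 were higher (16.7%, against 2.47% of all genes) and 1 was lower (8.33%, against 4.2%). Each of these had a mean under 10 CPM in 1 group and passed the filter through the other, so nothing is read from the shares. *Epor*, the receptor gene, ran from 0 to 208 CPM (median 37.3) in the detected and from 0 to 63.1 CPM (median 0) in the undetected cells. It was found in 39 of 47 and 11 of 44 cells, with means of 49.7 and 4.22 CPM and log2 ratios of 2.79 and 3.66. *Stat5b*, a transcription factor that acts below the receptor, had means of 35.4 and 7.67 CPM, but kept its call in 2 of 10 other settings. The lower gene was *Bcl2l11*, which encodes the death-promoting protein BIM, at 9.97 and 26.6 CPM, and its call was kept in 6 of 10 other settings. The survival gene *Bcl2l1* was not called, at 57.7 and 117.3 CPM. Of 15 red cell antioxidant and chaperone genes, *Gclm*, for glutathione synthesis, was the 1 called higher (36.5 and 15.0 CPM), 6.67% of the list against 2.47% of all genes, and it kept its call in 7 of 10 other settings.

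**Figure D2:**
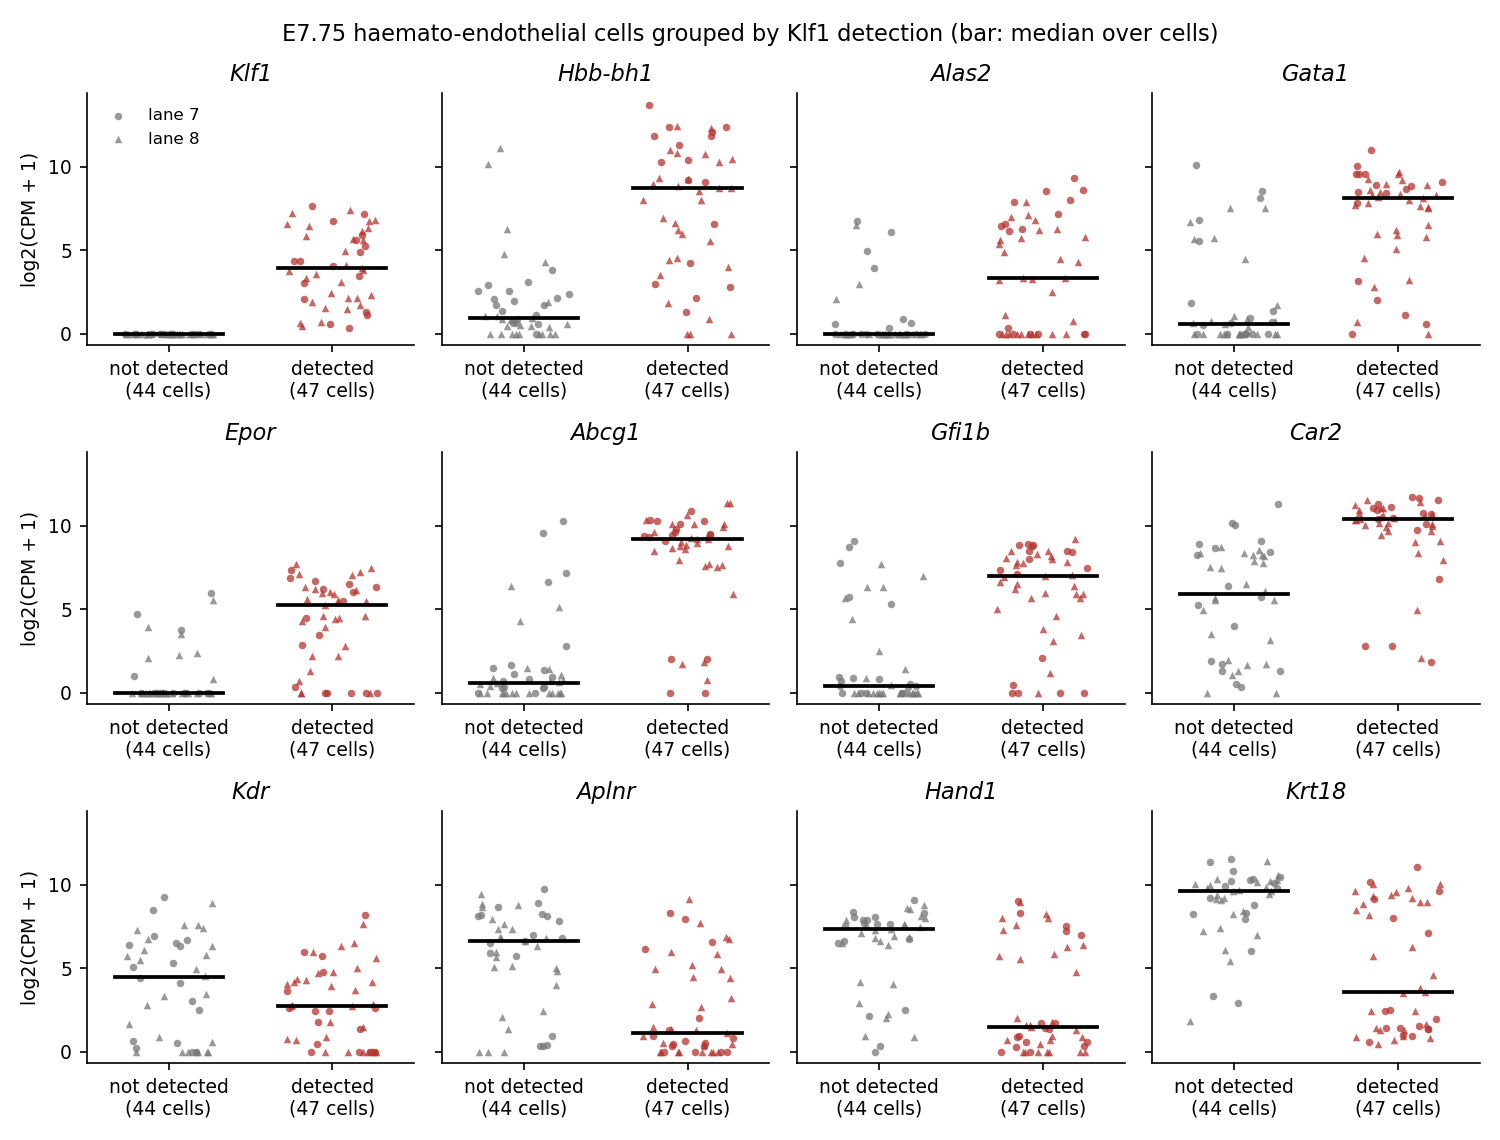
Log2(CPM + 1) of 12 genes in each E7.75 haemato-endothelial cell, without *Klf1* (grey, 44 cells) and with it (red, 47 cells). Circles are cells of lane 7, triangles cells of lane 8, and bars the medians over cells. The median of *Hbb-bh1* was 428 CPM in the detected and 0.904 CPM in the undetected cells, and that of *Krt18* was 10.9 and 795 CPM, with cells of both kinds at high and low values.

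Promoter sequence was looked at for the called genes, since KLF1 and GATA1 bind short motifs. RefSeq windows of 250 bases before to 50 after a start (GRCm38.p6) were used, with no window for 59 of the 204 higher and 96 of the 347 lower genes. The letters CACCC, on either strand, were in 74.5% of the higher, 74.1% of the lower and 64.2% of all 5897 considered genes with a window. The longer CCNCNCCC, which can overlap CACCC, was in 75.2%, 83.3% and 73.0%. GATAA was in 19.3%, 20.3% and 18.7%. For none of the 3 was the share in the higher genes more than 1 percentage point above that in the lower genes. The stretches before the start of 4 called genes, 2 of transcription factors, the receptor and a skeleton protein, are printed to show where the letters fall, with every match in capitals. Each runs 5′ to 3′ on the gene's strand, which is the minus strand for all 4, and holds no base of an annotated exon. They are chrX:7967911-7968160 for *Gata1*, inside the annotated gene, chr2:28621983-28622232 for *Gfi1b*, chr9:21963577-21963826 for *Epor* and chr12:76710548-76710797 for *Sptb*.
Gata1: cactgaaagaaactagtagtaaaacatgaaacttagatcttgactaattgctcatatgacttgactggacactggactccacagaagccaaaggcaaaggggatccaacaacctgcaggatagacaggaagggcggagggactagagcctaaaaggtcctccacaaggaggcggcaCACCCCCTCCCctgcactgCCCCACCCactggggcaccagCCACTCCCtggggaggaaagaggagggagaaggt
Gfi1b: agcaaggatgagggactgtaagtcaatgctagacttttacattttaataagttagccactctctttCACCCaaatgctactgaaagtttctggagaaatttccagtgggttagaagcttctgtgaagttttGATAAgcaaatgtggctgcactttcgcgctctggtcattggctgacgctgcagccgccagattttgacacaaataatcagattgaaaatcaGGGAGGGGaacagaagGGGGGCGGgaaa
Epor: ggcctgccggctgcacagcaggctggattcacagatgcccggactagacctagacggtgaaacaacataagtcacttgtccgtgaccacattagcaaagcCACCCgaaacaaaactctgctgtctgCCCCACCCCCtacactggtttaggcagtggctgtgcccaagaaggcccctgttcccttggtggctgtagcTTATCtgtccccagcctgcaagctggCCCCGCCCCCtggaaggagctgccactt
Sptb: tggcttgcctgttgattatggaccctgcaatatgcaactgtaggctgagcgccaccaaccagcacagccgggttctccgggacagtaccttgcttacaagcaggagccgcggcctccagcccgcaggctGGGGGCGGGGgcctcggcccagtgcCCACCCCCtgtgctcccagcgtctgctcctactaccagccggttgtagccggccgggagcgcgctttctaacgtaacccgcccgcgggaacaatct
In the *Gata1* stretch the matches to CCNCNCCC begin 71, 55 and 34 bases before the start. In that of *Epor* the nearest begin 28 and 26 bases before it, with TTATC, the reverse complement of GATAA, at 54 bases. The *Gfi1b* stretch holds GATAA and the *Gata1* and *Sptb* stretches do not. A match is only a run of letters, and binding was not measured.

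Other genes among those of largest ratio lay beyond the lists. *Abcg1*, a cholesterol exporter (chromosome 17), ran from 0 to 2678 CPM (median 602) in the detected and from 0 to 1243 CPM (median 0.524) in the undetected cells. Its mean of 701 CPM against 55.0 CPM gave log2 ratios of 2.54 and 6.70, so that its size differed widely between captures. *Ube2l6*, which conjugates ISG15, was at 104.1 and 3.35 CPM, and 61.7% of the detected cells exceeded the highest undetected cell. The manganese transporter gene *Slc30a10* was at 27.1 and 0.187 CPM, and the metallothionein gene *Mt1* at 28.0 and 1.07 CPM. *Slc14a1*, the urea transporter that carries the Kidd blood group in man, was at 24.9 and 0.0278 CPM. For *Tuba4a*, an α-tubulin gene, the undetected cells held 2 counts in all against 3090. Reads of 1 cell are not independent of each other, so no interval is given. Genes of this paragraph with a mean under 10 CPM in the undetected cells, *Tuba4a* among them, passed the filter through the detected cells and had to differ. Others of this rank were *Tubb3* (27.9 and 1.49 CPM), *Hecw2* (25.6 and 1.04 CPM), *Ajap1* (22.9 and 1.16 CPM), *Scube2* (62.3 and 5.22 CPM) and *Rgs10* (25.9 and 1.70 CPM).

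Some of the largest ratios rested on single cells. *Dpp7* had a log2 ratio of 5.53, but its median was 0 in both groups and 1 cell held 96.1% of its CPM in the detected group. For *Uhrf1bp1* (5.10) that share was 89.5% and for *Rccd1* (3.90) 79.2%. With all cells thinned to 500000 counts, which leaves out shallower cells, these 3 ratios turned to −3.44, −2.19 and −0.92. Of the 204 higher genes, 15 had 50% or more of their CPM in the detected group in 1 cell, and the difference of the mean log2 values kept the direction of the ratio for all 204. Of the 347 lower genes, 10 had such a share of their CPM in the undetected group in 1 cell. In the other group of each set the numbers were 24 and 19.

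Megakaryocyte genes were mostly too low to be considered. Of 25, 4 passed the filter and *Itga2b*, the platelet integrin CD41 and an early mark of blood commitment, was higher (1 of 4, against 2.47% of all genes). It ran from 0 to 310 CPM (median 8.76) in the detected cells and was found in 36 of 47, against 13 of 44 undetected cells, with log2 ratios of 2.08 in both captures. Its partner *Itgb3* was at 21.8 and 4.41 CPM but differed between captures (0.55 and 4.14). The thrombin receptor gene *F2r* was at 319 and 156.7 CPM and *Cd9* at 39.2 and 28.1 CPM. Platelet genes of later cells were at or near 0 in both groups, with no count of *Gp1bb* and *Pf4* in 1 detected and 3 undetected cells. Of 6 progenitor and myeloid genes above the filter, *Adgrg1* (57.6 and 9.26 CPM) and *Ikzf2* (81.5 and 24.2 CPM) were higher and *Plac8* (33.1 and 83.0 CPM) was lower, against 2.47% and 4.2% of all genes. *Adgrg1* passed the filter through the detected cells. The macrophage genes *Csf1r* and *Cx3cr1* were each found in 1 detected cell, and in 0 and 1 undetected cells. No other Krüppel-like factor was higher. Of 11, *Klf14* was lower (22.2 and 80.5 CPM), which is 9.09% of the list against 4.2% of all genes. It kept its call in 8 of 10 other settings. *Klf6* (64.4 and 150.8 CPM) and *Klf13* (403 and 450 CPM) were not called.

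The endothelial genes that were called were all lower. Of 22 above the filter, 10 were lower (45.5%, against 4.2% of all genes) and none was higher, and 19 had a ratio below 0, with a median of −1.14. *Flt4*, *Ramp2*, *Sox7* and *Mef2c* had a mean under 10 CPM in the detected cells and passed through the undetected cells, so nothing is read from the share. Between 5 and 14 were lower over 10 other settings, and *Kdr*, *Esam*, *Flt4*, *Mef2c*, *Ramp2* and *Sox7* lost their call with mean log2 values. *Kdr*, the gene of the sorted locus and the main VEGF receptor, ran from 0 to 290 CPM (median 5.65) in the detected and from 0 to 614 CPM (median 21.1) in the undetected cells. It was found in 36 of 47 (76.6%) and 35 of 44 (79.5%) cells, so the groups differed in its level more than in the share of cells. The means were 25.0 and 73.8 CPM, with log2 ratios of −1.63 and −1.42. *Aplnr*, the apelin receptor of mesoderm and venous endothelium, had a median of 1.17 CPM in the detected and 98.6 CPM in the undetected cells, and 6 detected cells were above the undetected median. The other lower genes were the VEGF-C receptor *Flt4* (2.22 and 18.6 CPM), the co-receptors *Nrp1* (103.2 and 269 CPM) and *Nrp2* (21.5 and 50.6 CPM), the adrenomedullin co-receptor *Ramp2* (7.56 and 25.8 CPM), the junction gene *Esam* (15.3 and 42.9 CPM) and *Ecscr* (16.4 and 63.1 CPM). The transcription factor genes *Sox7* (6.74 and 57.7 CPM) and *Mef2c* (5.24 and 28.7 CPM) completed the 10.

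Other endothelial genes missed the limit. *Tek*, the angiopoietin receptor, was found in 40 of 47 detected and 32 of 44 undetected cells, at 123.2 and 99.2 CPM. *Pecam1* was found in 32 and 27 cells, at 20.4 and 38.2 CPM, and *Cdh5*, VE-cadherin, in 26 and 17 cells, at 9.70 and 16.0 CPM. None of these 3 was called, although the means of *Pecam1* and *Cdh5* were below those of the undetected cells. *Cdh5* differed between captures, with −3.01 in lane 7 and −0.01 in lane 8. Cells that held both sets of genes, 2 or more of the 4 endothelial and 3 or more of the 4 erythroid genes named in the marker check, numbered 30 of 47 with *Klf1* (63.8%, exact 95% interval 48.5 to 77.3), against 8 of 44 without it (18.2%, 8.19 to 32.7). A gene was taken as held at 1 count. *Hbb-bh1* was found in 34 of the 44 undetected cells, whose median was 0.904 CPM. The both-sex cells, 5 in each group, were kept. These numbers therefore do not show that both sets were at a substantial level in 1 cell. Counted with or without the other set, 3 or more erythroid genes were held by 38 and 11 cells and 2 or more endothelial genes by 36 (76.6%) and 26 (59.1%). The erythroid genes were among those called on these cells. Of the endothelial genes, *Tek*, *Pecam1* and *Cdh5* were not called. Over all 7 endothelial markers, the mean share of cells with a marker was 61.4% in the detected and 60.1% in the undetected cells.

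Of 36 mesoderm and mesenchyme genes, 14 were lower (38.9%, against 4.2% of all genes), none was higher and 22 were not called, with a median of −1.20. *Tbx4* and *Pdgfrb* had a mean under 10 CPM in the detected cells and passed through the undetected cells, so nothing is read from the share. Between 13 and 28 were lower over 10 other settings, and *Hand1* kept its call in 7 of them. *Hand1*, a factor of extraembryonic mesoderm, had a median of 1.76 CPM in the detected cells and 161 CPM in the undetected cells. Values ran from 0 to 514 and from 0 to 555 CPM, with 40 undetected cells above the median of the detected cells. The keratin gene *Krt18* had medians of 10.9 and 795 CPM and *Vim*, the mesenchymal intermediate filament, 79.6 and 372 CPM. Their means of 293 and 851 CPM and of 136.8 and 404 CPM gave log2 ratios of −1.53 and −1.55. *Msx1* (15.8 and 53.0 CPM), *Bmp2* (17.3 and 57.9 CPM), *Bmp5* (11.5 and 59.8 CPM), the BMP target *Id2* (67.4 and 138.9 CPM), *Tbx4* (2.55 and 31.5 CPM) and *Pdgfrb* (8.30 and 46.6 CPM) were lower. *Id2* kept its call in 6 and *Tbx4* in 5 of 10 other settings, and *Tbx4* lost it also without the highest cell of each group and capture. So were *Cdh11* (41.1 and 103.1 CPM), *Wfdc2* (14.7 and 49.8 CPM), the cardiac and mesodermal light chain *Myl7* (18.0 and 72.2 CPM), *Tdo2* (75.6 and 240 CPM) and *Ahnak* (87.0 and 216 CPM). *Pmp22* (410 and 948 CPM) and *Spin2c* (257 and 592 CPM) missed the limit in 1 capture. Of 6 primitive streak and nascent mesoderm genes, 3 were lower, against 4.2% of all genes, and between 1 and 5 were lower over 10 other settings. *Mixl1* and *Cdx4* likewise passed the filter through the undetected cells. *Mixl1*, a streak factor, was found in 9 and 19 cells (5.27 and 49.5 CPM), *Cdx4* in 6 and 15 cells (6.44 and 44.9 CPM) and *Lef1*, a Wnt effector, in 30 and 39 cells (26.8 and 90.8 CPM). *Cdx4* in the detected group was 97.8% from 1 cell, and it kept its call in 6 of 10 other settings. *Foxf1* and *Pdgfra* were not called, at 54.0 and 98.7 CPM and at 38.4 and 70.0 CPM.

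Outside the lists, the largest negative ratios were those of *Mtcl1* (0.403 and 22.8 CPM, log2 ratio −4.08), *Pag1* (−3.44), *Tctn2* (−3.31) and *A930032L01Rik* (−3.24), of which *Tctn2* kept its call in 3 of 10 other settings. The receptor phosphatase *Ptprk* was at 2.86 and 30.2 CPM, the metalloendopeptidase *Mme* at 6.30 and 44.3 CPM, *Kank1* at 3.78 and 28.2 CPM, *Tpd52l1* at 2.98 and 23.5 CPM and the zinc finger gene *Sall1* at 3.31 and 30.0 CPM. *Oit3*, known from liver endothelium, was at 5.46 and 44.5 CPM. For these 6 genes the highest undetected cell lay between 119.3 and 459 CPM, whereas the median was 0 in the detected cells and at most 12.1 CPM in the undetected cells.

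Few genes of growth and division reached 2-fold in both captures, but the S phase, ribosome and respiration lists lay mostly above 0. None of 30 mitosis genes was called and their median was 0.05, the value of all genes. Of 29 S phase genes, the licensing factor *Cdt1* was higher (57.7 and 20.5 CPM), which is 3.45% of the list and near the 2.47% of all genes, and 24 had a ratio above 0, with a median of 0.30. No gene of 24 for ribosome biogenesis and translation was called, with 22 above 0 and a median of 0.43, against 0.05 for all genes. Of 32 genes of respiration and glycolysis *Hk1*, the hexokinase of red cells, was higher (28.1 and 2.93 CPM), 3.13% of them. It passed the filter through the detected cells. Of these 32 genes, 25 had a ratio above 0, with a median of 0.25. Of 14 cell cycle regulators *Btg2*, an antiproliferative gene, was higher (133.2 and 34.8 CPM) and *Ccnd1* lower (21.7 and 86.2 CPM). Each is 7.14% of the list, against 2.47% higher and 4.2% lower of all genes. *Ccnd2* was at 1805 and 871 CPM and missed the limit in lane 8. None of 4 immediate early and stress genes above the filter was called, and no visceral endoderm gene passed it.

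**Figure D3:**
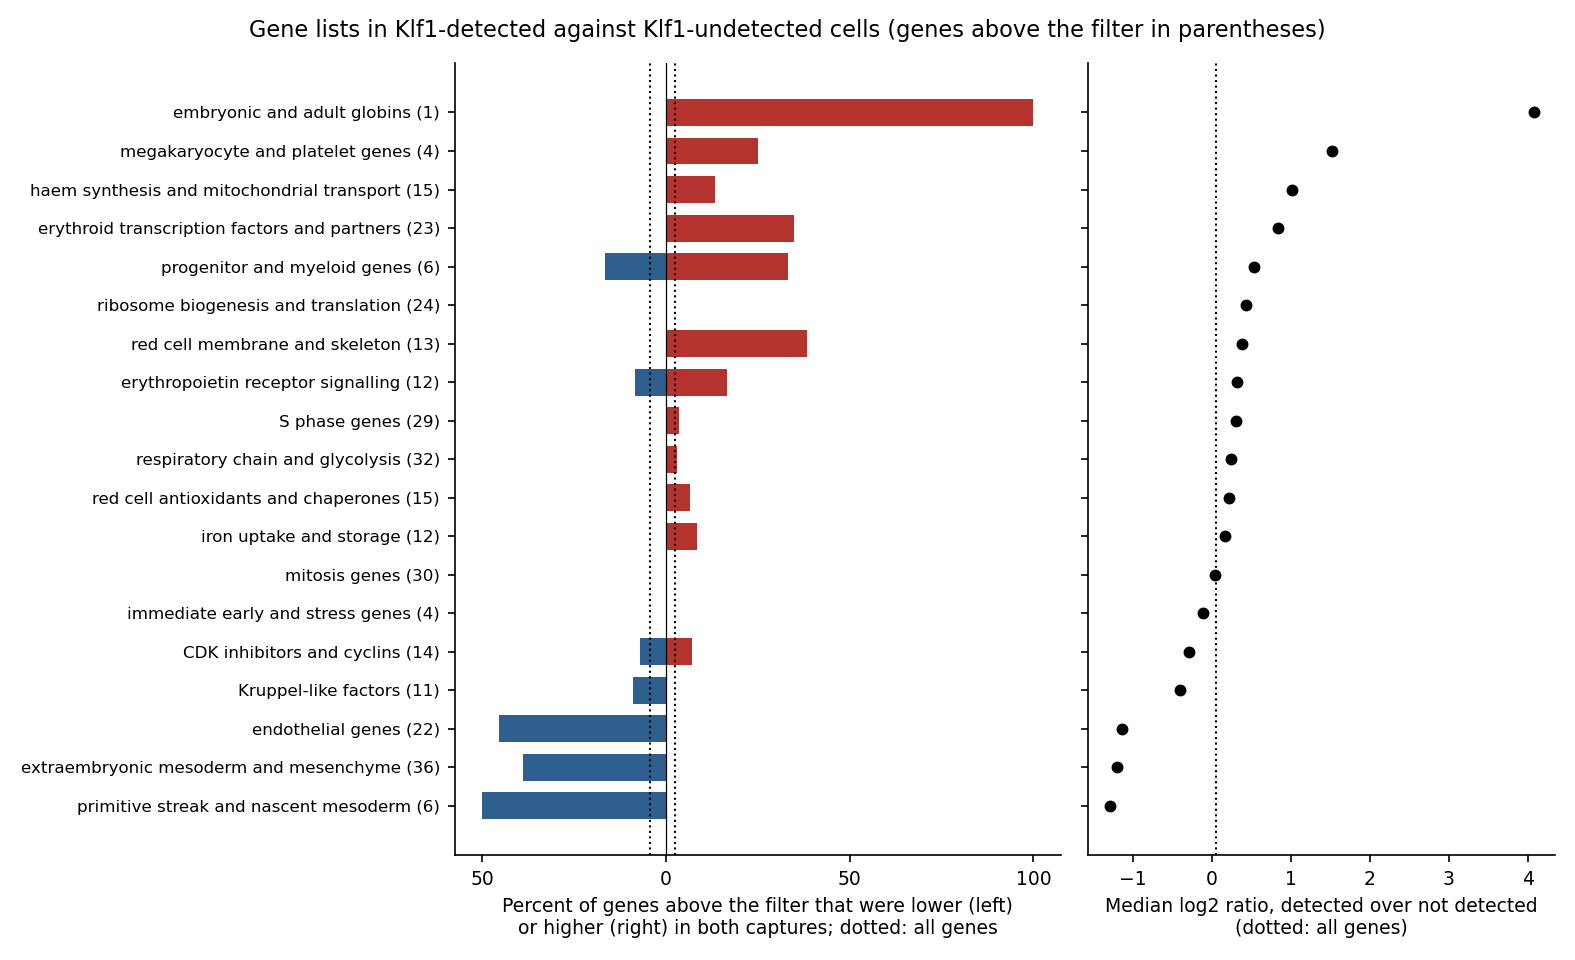
Gene lists in *Klf1*-detected against undetected cells, with the number of genes above the filter in parentheses. Left, percent of those genes called higher (red, right) or lower (blue, left), with 2.47% and 4.2% of all genes as dotted lines. Right, median log2 ratio, which ran from −1.29 for primitive streak genes to 4.07 for the single globin.

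The level of *Klf1* within the detected cells was then set against the same genes, in terciles by *Klf1* CPM of 16, 16 and 15 cells. Their *Klf1* CPM ran from 0.247 to 4.40, from 7.20 to 48.7 and from 49.0 to 197, and their median total counts were 1668573, 2200120 and 1973468. Among all 8258 genes, 11.1% were 2-fold or more higher and 15.7% lower in the upper tercile than in the lower tercile. Of the 204 higher genes these were 89 and 34, and of the 347 lower genes 29 and 180. *Hbb-bh1* had means of 409, 1483 and 2387 CPM, after 82.7 CPM in the undetected cells. *Abcg1* went from 272 through 629 to 1236 CPM, *Nfe2* from 13.1 through 32.7 to 60.8 CPM and *Epor* from 21.6 through 53.3 to 75.7 CPM. *Gata1* (88.6, 508 and 428 CPM) and *Alas2* (23.7, 126.01 and 69.7 CPM) were highest in the middle tercile in the pooled means, but not in both captures. *Gata1* had 772 and 446 CPM in the middle and upper terciles of lane 7 (8 and 4 cells) and 244 and 421 CPM in those of lane 8 (8 and 11 cells). *Alas2* had 219 and 155.9 CPM in lane 7 and 33.4 and 38.4 CPM in lane 8. *Epb42* was at 0.983 CPM in the lower tercile and at 30.2 and 44.4 CPM above it. *Aplnr* had 97.2, 16.2 and 13.8 CPM, *Hand1* 149.1, 37.1 and 23.3 CPM and *Krt18* 608, 123.6 and 138.2 CPM, so that the lower tercile lay nearest to the undetected cells. Within captures *Krt18* did not rise from the middle to the upper tercile, with 19.4 and 1.61 CPM in lane 7 and 228 and 188 CPM in lane 8. Set against the undetected cells, the lower tercile had a median log2 ratio of 1.23 over the 204 higher and −1.13 over the 347 lower genes, and −0.05 over all genes. It was 2-fold or more higher for 62.3% of the 204 genes, against 7.63% of all genes, and 2-fold or more lower for 198 of the 347 genes (57.1%), against 8.78%. Both gene sets were called on these same cells, so the shares within terciles follow in part from that choice and are given as a description.

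**Figure D4:**
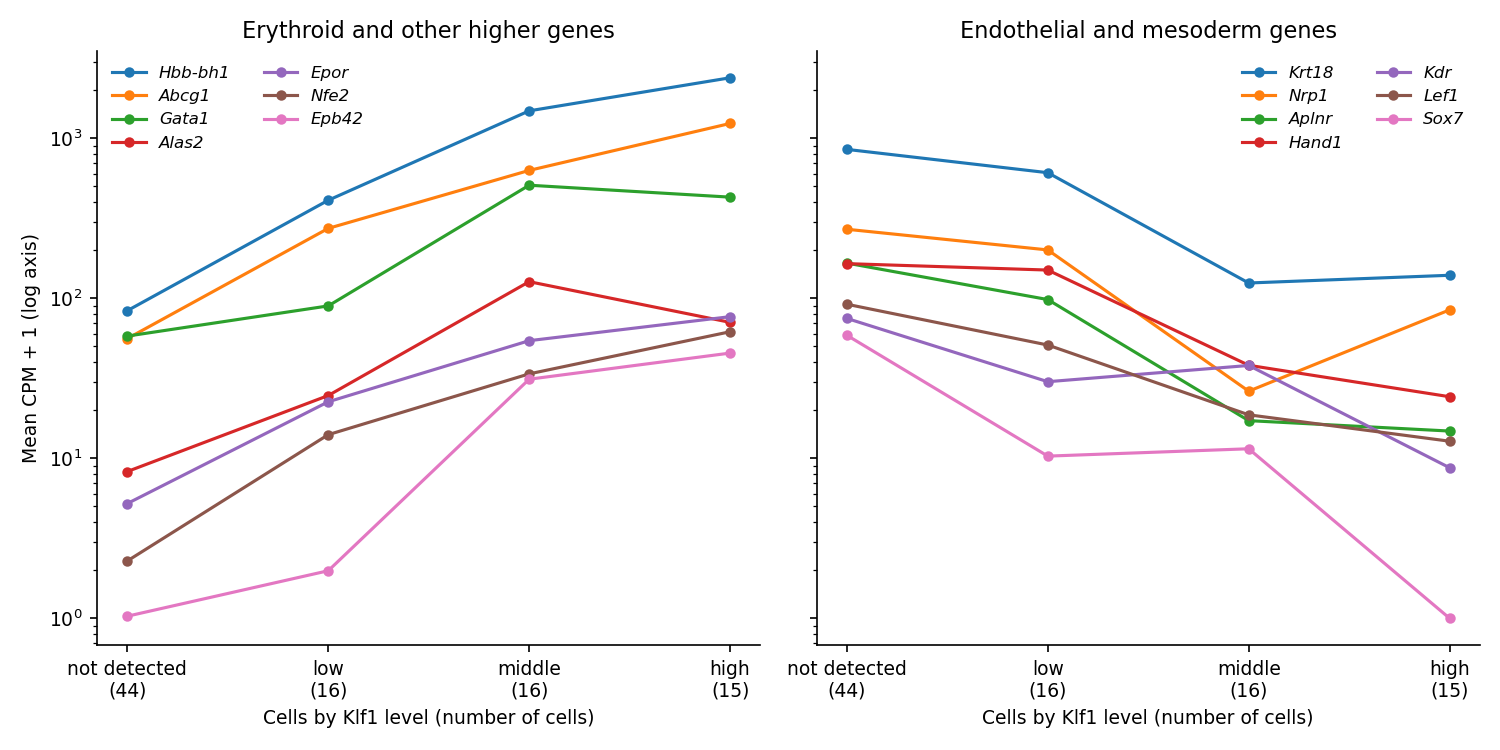
Mean CPM + 1 (log axis) in the 44 *Klf1*-undetected cells and in terciles of the 47 detected cells by *Klf1* level, for 7 genes called higher (left) and 7 called lower (right). *Hbb-bh1* went from 82.7 CPM in the undetected cells to 2387 CPM in the upper tercile, and *Aplnr* from 165 to 13.8 CPM.

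The same division at E7.25, the earlier stage of the same sort, gave few *Klf1*-detected cells. *Klf1* was found in 6 of 86 class cells (6.98%, exact 95% interval 2.60 to 14.6), 3 in each of 2 captures, with at most 26 counts. Of 8204 genes, 1.18% were higher and 7.79% were lower there. Of the 204 genes higher at E7.75, 60 lay under the filter at E7.25, and 7 of the rest were higher and 16 lower in the 6 cells, with a median log2 ratio of 0.06. Of the 347 lower genes 299 passed, 60 were lower and 5 higher, and the median was −0.49, against −0.02 for all genes considered at E7.75 that passed. *Alas2* (40.6 and 7.83 CPM), *Abcg1* (91.5 and 29.9 CPM) and *Ube2l6* (53.9 and 10.3 CPM) were higher at both stages. *Gata1* (112.97 and 50.1 CPM) was not called. *Hbb-bh1*, at 20.9 and 26.0 CPM, and *Epor*, at 15.0 and 3.66 CPM, were detected in too few cells for the filter or had too low a mean. Differences between the stages were not tested, and the E7.25 values rest on 6 cells.

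Sorted populations of later stages, which the rule did not use, gave levels of the called genes in other cells. They have no lineage link to the E7.75 cells. These were primitive erythroid cells (66 cells) and endothelium (79 cells) at E8.5, from 1 capture each, sequenced on another flow cell. In erythroid cells over endothelium, 17.4% of all genes considered were 2-fold or more higher and 22.3% lower. Of the 204 higher genes, 110 (53.9%) were higher in erythroid cells and 19 lower, and of the 347 lower genes, 9 were higher and 253 (72.9%) lower. Among the E8.5 populations of erythroid cells, megakaryocytes, progenitors and endothelium, 94 of the 204 genes had their highest mean in erythroid cells, 62 in megakaryocytes, 23 in progenitors and 25 in endothelium. Over all genes the shares were 35.6%, 19.4%, 12.5% and 32.6%, and for the higher genes 46.1%, 30.4%, 11.3% and 12.3%. *Klf1* itself had a mean of 20.4 CPM over all 91 cells of the E7.75 class, 140 CPM in E8.5 erythroid cells and 27.5 CPM in E8.5 megakaryocytes. *Hbb-bh1* was at 56134 CPM in E8.5 erythroid cells and 2.20 CPM in endothelium, *Epb42* at 260 and 0 CPM and *Car2* at 6537 and 305 CPM. *Gata1* was at 501 CPM in erythroid cells, against 340 CPM in the detected cells of E7.75. *Abcg1* was lower in E8.5 erythroid cells (132.2 CPM) than in megakaryocytes (366 CPM) and than in the E7.75 detected cells (701 CPM), and *Myb* was at 2.28 CPM in erythroid cells against 50.8 CPM. *Sox7*, *Hand1* and *Lef1* had no count in E8.5 erythroid cells.

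**Figure D5:**
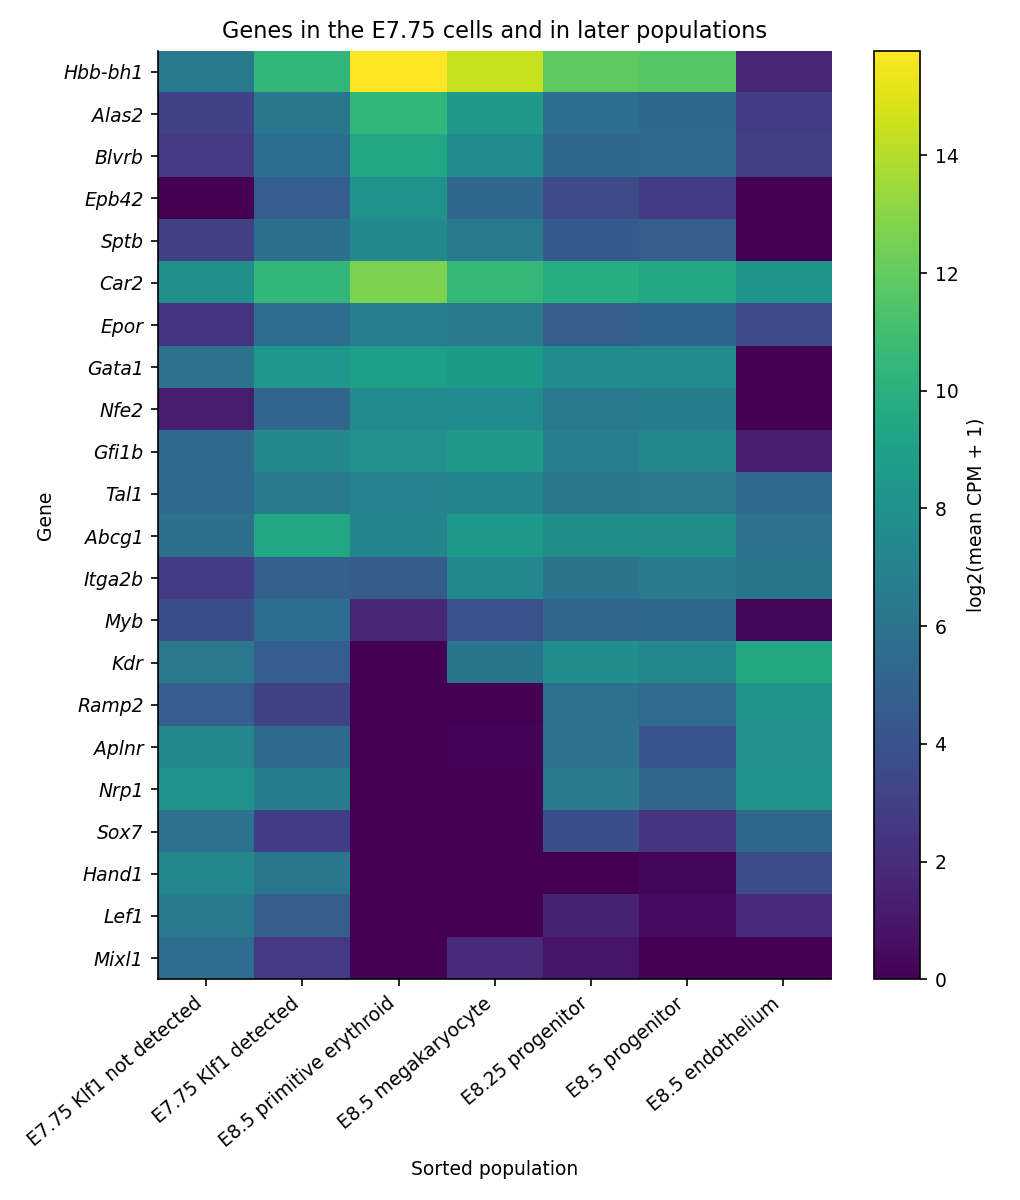
Log2(mean CPM + 1) of 22 genes in the E7.75 haemato-endothelial cells without and with *Klf1* and in 5 later populations. *Hbb-bh1* was brightest in E8.5 primitive erythroid cells (56134 CPM), and the endothelial and mesoderm genes were dark there, with *Kdr* at 739 CPM in E8.5 endothelium.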

How the data were processed

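Single-cell RNA-seq was analysed for 140 *Flk1*-GFP+ cells of E7.75, 147 of E7.25 and the later populations. Read counts per gene were made by the authors, who aligned paired reads of 100 bases with Rsubread to Ensembl release 84 (GRCm38) and counted them with featureCounts. The signal values, CPM, were deposited by the authors from the counts of cells that passed their scater filter, scaled with scran size factors; CPM is not a count of molecules and does not correct for gene length. Tool versions are not given in the sources used here. Detection (1 count or more) used the counts, and levels used CPM, as log2 ratios of mean CPM + 1. The 4 populations at E8.5 were used as 1 capture each. E7.75 cells came from lanes 7 and 8 of 1 flow cell, and 48 index pairs were used in both lanes, with lanes kept apart. Doublets were not removed, and cells that held both *Xist* and 4 Y-linked genes summed, each at 5 counts or more, were counted and left out as an alternative.

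The embryo of a cell is unnamed and cells do not replicate a condition, so no test was made. Intervals are exact Clopper-Pearson 95% and cover counting error only. The members, the 20 gene lists and the markers were chosen with earlier results of these data known, so nothing here is independent of them. Named genes are the 20 of largest ratio in each direction among called genes, every called list member, the class genes and up to 3 uncalled members of highest level per list. Genes under the filter (*Hbb-y*, *Hba-x*, *Ank1*, *Slc4a1*, *Gp1bb*, *Pf4*, *Csf1r*, *Cx3cr1*), *Pecam1* and *Cdh5* were named after their values were seen. Some genes of that rule are not reported here. Coordinates are from GENCODE M21 (GRCm38), by symbol, for 15381 of 15967 genes. The method was tested on simulated data, where 196 of 200 changed genes and 3 of 8113 unchanged genes were called. Changes were set only in genes well above the filter. The simulation therefore does not show how calls behave for changed genes near the filter or for genes carried by 1 cell. Alternatives were pseudocounts, filters, thinning, scaling to the cell total, stricter *Klf1* or class limits, all E7.75 cells, no both-sex cells, mean log2 values and single captures; a class with all 6 genes, cells of at most 10% mitochondrial counts and leaving out the highest cell of each group were added after seeing the data. The software was Python 3.11.15 with pandas 2.3.3 and numpy 2.4.6, scipy 1.17.1 for intervals and, for figures, matplotlib 3.10.9.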

Additional observations from a re-analysis of the deposited data

Results flagged for a closer look

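Of the genes called at E7.75, 16 of the higher genes (11.1% of those that passed the filter at E7.25) were lower there, 2-fold or more in both captures. Of all genes that passed at both stages, 6.99% were lower at E7.25. Of the lower genes 5 were higher (1.67%), against 1.04% of all genes that passed at both stages. The naming rule gave 3 of these, *Mixl1*, *Ikzf2* and *Tubb3*. *Mixl1* had a log2 ratio of 2.11 at E7.25 (950 CPM in the *Klf1*-detected and 219 CPM in the undetected cells) and −3.01 at E7.75. *Ikzf2* had −3.84 at E7.25 (0.140 and 15.3 CPM) and 1.71 at E7.75, and *Tubb3* had −1.24 (4.10 and 11.0 CPM) and 3.54. The differences between stages were not tested, and the E7.25 values come from 6 detected cells.

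*Klf1* was also found in 4 of 10 E7.75 cells (40.0%) that the authors' filter removed, in counts of at most 6 and at total counts of 96255 to 454951 per cell. All 10 had 4 or more of the class genes. These cells were used in no comparison.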

How the results depend on the processing

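The number of genes called depended on the limits. Of the genes considered, 1.09% were higher and 1.72% lower with a pseudocount of 10 CPM, 3.11% and 4.47% of 15966 with no filter (496 and 714 genes), and 1.25% and 2.19% of 3747 with a filter at a mean of 50 CPM and 40% of cells (47 and 82 genes). The difference of mean log2 values gave 3.74% higher (309 genes), and *Klf1* at 10 counts or more against none gave 7.54% lower (620 genes). Single captures, which ask for 1 agreement instead of 2, gave 6.94% to 12.3% higher and 9.31% to 13.7% lower. Other settings stayed within 1.5 times the first counts. Thinned to 500000 counts per cell, 247 and 498 genes were called, which held 65.7% of the 204 higher and 66.6% of the 347 lower genes. Without the highest cell of each group and capture they held 83.8% and 85.9%, and with all 6 class genes required 52.0% and 44.7%. Under those 3 settings between 190 and 202 of the higher genes and between 344 and 347 of the lower genes kept their sign. The called genes among those named that turned were *Dpp7* (−3.44), *Uhrf1bp1* (−2.19) and *Rccd1* (−0.92), all after thinning, and the cause was not tested. Of 86 called genes that the naming rule gave, 39 kept their call in all 10 settings with both captures, 31 in 7 to 9 and 16 in 6 or fewer, which included *Cdx4*, *Hecw2*, *Mef2c* and *Tal1* (6 each). Of 57 uncalled genes of the rule, 15 had another sign in at least 1 setting. *Fli1* went from −0.38 to 1.33 with mean log2 values and was then called higher. With all 6 class genes required *Hhex* went from 1.01 to −0.06, *Cd9* from 0.47 to −0.06 and *Tek* from 0.31 to −0.32, and *Klf13* went from −0.16 to 0.11 with *Klf1* at 10 counts or more.

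Higher erythroid transcription factors numbered 5 to 11, lower endothelial genes 5 to 14 and lower mesoderm and mesenchyme genes 13 to 28 over 10 settings. Higher haem genes numbered 2 to 7, lower primitive streak genes 1 to 5 and higher progenitor and myeloid genes 1 to 4. *Kdr* lost its call with mean log2 values and with all 6 genes required, *Sox7* also with a pseudocount of 10 CPM, and *Hand1* after thinning and in both stricter classes. The share of the class with *Klf1* was 36.3% at 10 counts or more and 68.4% among cells with all 6 genes. It ran from 48.6% to 53.6% over single captures. Thinned to 500000 counts per cell it was 54.8% (40 of 73 cells), with shallower cells left out. No paired analysis was possible because the numbers in the labels only count cells within a population.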
